A study of Mus musculus with 4 samples.

Results

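Gonadotropes are the pituitary cells that make luteinizing hormone (LH) and follicle-stimulating hormone (FSH). They were described here in droplet single-cell RNA sequencing of whole pituitary glands from wild-type C57BL/6J male mice fed either a control diet (CTRL) or a diet high in fat (HFD) for 12 weeks. The series holds 4 libraries, 2 per diet, named CTRL 1, CTRL 2, HFD 1 and HFD 2, made with the 10x Genomics 3' v3.1 chemistry from trypsin and collagenase suspensions. All mice were wild type with no other treatment given, and the labels do not state the age of the mice or how many glands entered a library, so p-values measure only the spread between libraries, which may be technical. A cell was a barcode with at least 500 genes and at most 20% of its unique molecular identifiers (UMIs, the counts of captured transcripts) from mitochondrial genes. A gonadotrope was a cell in which Fshb, Lhb, Gnrhr and Tgfbr3l together made up at least 0.5% of UMIs, with at least 2 of the 4 detected, and in which Gh stayed under 15%, Prl under 5%, Pomc under 2% and Tshb under 1%. By this rule 1385 of 27220 cells were gonadotropes: 195 and 222 in libraries CTRL 1 and CTRL 2, and 593 and 375 in libraries HFD 1 and HFD 2.

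LH and FSH are pairs of a shared alpha subunit, encoded by Cga, and a beta subunit of their own, encoded by Lhb and Fshb. Pulses of gonadotropin-releasing hormone (GnRH) from the hypothalamus act through the receptor Gnrhr and induce immediate-early factors such as Egr1, which works with Nr5a1 (steroidogenic factor 1, SF-1) and Pitx1 on the Lhb gene. Fshb depends on activin signals, which inhibins oppose with the coreceptors Tgfbr3l and Tgfbr3, and FSH and LH are released from secretory granules built on secretogranins.

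The promoters of the 3 subunit genes are shown because the hormones of these cells are made from these genes. Each is the 250 bases before the RefSeq start site on the GRCm38.p6 build (the build that mm10 names), written 5′ to 3′ on the gene's own strand. All 3 genes matched an entry. Capitals mark matches, on either strand, to an SF-1 type motif (TGNCCTTG), an EGR type motif (CNCCCCCA), an AP-1 motif (TGACTCA) and a TATA box (TATAAA).

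Cga, chr4:34893529-34893778, plus strand: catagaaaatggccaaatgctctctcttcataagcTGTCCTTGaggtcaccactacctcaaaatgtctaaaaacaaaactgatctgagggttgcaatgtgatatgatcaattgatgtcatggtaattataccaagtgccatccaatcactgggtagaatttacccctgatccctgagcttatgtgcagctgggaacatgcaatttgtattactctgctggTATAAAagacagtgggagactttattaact

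Fshb, chr2:107059652-107059901, minus strand: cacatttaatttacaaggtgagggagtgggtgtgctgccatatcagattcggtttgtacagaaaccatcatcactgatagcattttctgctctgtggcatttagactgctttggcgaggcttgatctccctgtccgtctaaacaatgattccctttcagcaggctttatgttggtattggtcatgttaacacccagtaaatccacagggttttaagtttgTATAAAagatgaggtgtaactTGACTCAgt

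Lhb, chr7:45420696-45420945, plus strand: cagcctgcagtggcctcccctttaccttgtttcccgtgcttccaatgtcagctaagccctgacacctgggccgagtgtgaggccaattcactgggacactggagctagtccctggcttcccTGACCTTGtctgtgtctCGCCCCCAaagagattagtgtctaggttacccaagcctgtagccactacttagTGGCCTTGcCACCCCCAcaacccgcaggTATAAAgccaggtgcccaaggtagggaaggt

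The Lhb promoter held 2 SF-1 type matches, at 129 to 122 and 59 to 52 bases before the start, and 2 EGR type matches, at 112 to 105 and 50 to 43 bases before it. Among 32851 mouse promoters of the same length, 5.53% held an SF-1 type match and 0.286% held 2 or more, while 12.8% held an EGR type match and 1.72% held 2 or more. The Cga promoter held 1 SF-1 type match, at 215 to 208 bases before the start. The Fshb promoter held 1 AP-1 match, at 9 to 3 bases before the start, a motif found in 4.46% of promoters. All 3 held a TATA box, at 31 to 26 bases before the start in Lhb and 30 to 25 in Cga and Fshb, which 12.4% of promoters held. A match is a run of letters and was not tested as a binding site. Positions count from the RefSeq start. The gene coordinates given below are from GENCODE vM21, in which Lhb and Fshb begin inside these windows.

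Many barcodes were present in more than 1 library, and most gonadotropes of CTRL 2, HFD 1 and HFD 2 carried such a barcode. HFD 1 and HFD 2 shared 3116 cell barcodes and HFD 1 and CTRL 2 shared 1423, while each of the other 4 library pairs shared between 14 and 22. For 3110 of the barcodes shared by HFD 1 and HFD 2, the HFD 1 copy was the smaller, with a median of 5.58% of the UMIs of the HFD 2 copy (5th to 95th percentile 5.10 to 6.19%). Between HFD 1 and CTRL 2 the smaller copy lay in HFD 1 for 1018 barcodes, at a median of 2.87%, and in CTRL 2 for 405, at 2.52%. Of barcodes that were a cell in both libraries, 97.8% had the same cell class in HFD 1 and HFD 2 and 90.6% in HFD 1 and CTRL 2.

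Of the 593 gonadotropes of HFD 1, 415 (70.0%) were the smaller copy of a barcode that had more UMIs in another library, 329 of them in HFD 2 and 86 in CTRL 2. They carried 12.3% of the UMIs of the HFD 1 gonadotropes. From the other side, 341 of the 375 HFD 2 gonadotropes (90.9%) had a copy in HFD 1, against 95.8% of HFD 2 thyrotropes and 8.53% of its somatotropes. The median UMI count per gonadotrope was 31545 and 25095 in the CTRL libraries, against 1698 in HFD 1 and 26342 in HFD 2. The main results are therefore also given with a shared barcode kept only in the library where it had the most UMIs ("counted once"), which left 195, 206, 178 and 375 gonadotropes with a median of 27006 UMIs in HFD 1. Where no counted-once value stands beside a named gene or a named difference between cell classes, its direction and its side of the threshold were the same counted once. Summed over all gonadotropes, a library held between 4974795 and 9367572 UMIs.

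**Figure D1:**
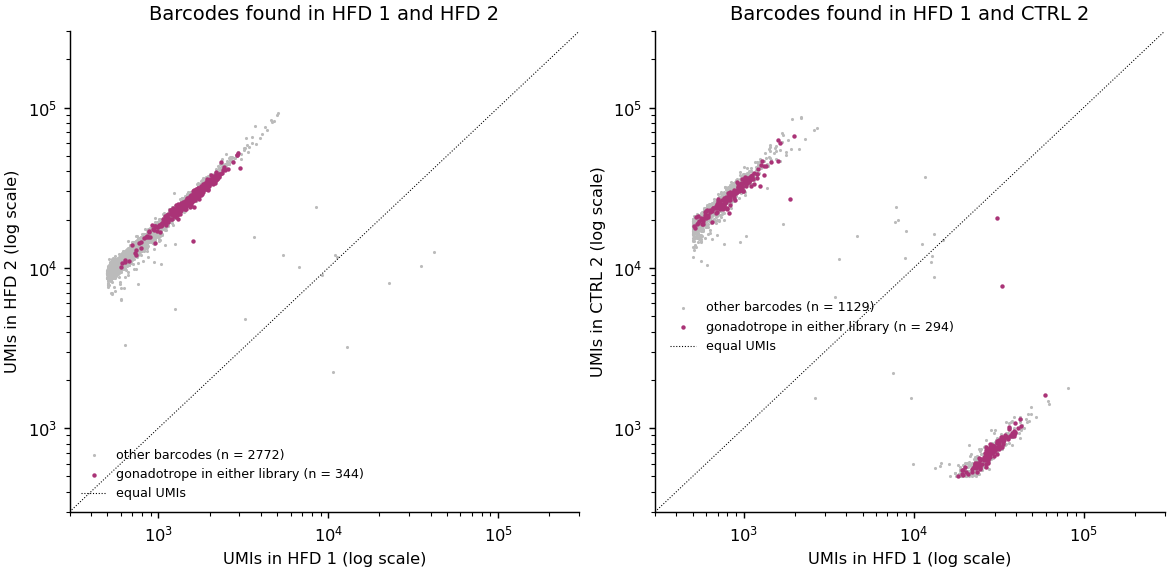
UMIs per barcode in the 2 libraries that share it, on log scales, for HFD 1 with HFD 2 (left) and HFD 1 with CTRL 2 (right). Coloured points are barcodes that were gonadotropes in either library, and the dotted line marks equal UMIs. Most points lie in narrow bands away from that line, near 5.58% (left) and near 2.87% and 2.52% (right) of the larger copy.

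The members carried the expression of gonadotropes. Averaged over libraries as counts per 1000000 summed UMIs (CPM), the genes most raised over all other cells included the rule's own Fshb (149-fold), Gnrhr (116-fold), Lhb (116-fold) and Tgfbr3l (95.5-fold), which only restate the rule. Among genes outside the rule, Cga was 36.5-fold and Nr5a1 33.4-fold higher in members than in other cells. Foxl2, a forkhead factor of Fshb control and named after its value was seen, was 18.2-fold higher. The other leading genes were Speer4e (163-fold, a member of a family of near-identical copies, so its counts are uncertain), Grem1 (97.2-fold), an antagonist of bone morphogenetic proteins, Spp1 (82.8-fold), which encodes osteopontin, Nr0b1 (64.3-fold), which encodes the nuclear receptor DAX1, Serpinb1a (49.0-fold), a protease inhibitor, and Nefl (48.7-fold), the neurofilament light chain. These ratios describe the chosen cells and are no test.

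The 4 genes of the rule took a median of 2.08 and 1.73% of a member's UMIs on CTRL (libraries 1 and 2), and 1.81 and 2.04% on HFD. Close to the threshold, 23 members lay between 0.5 and 0.6% and 22 cells between 0.4 and 0.5% were left out. A further 90 cells passed on the 4 genes and were left out by a limit on another hormone.

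On CTRL, gonadotropes made up 4.32% of cells in library 1 (95% exact binomial interval 3.75 to 4.96) and 3.03% in library 2 (2.65 to 3.45). On HFD they made up 7.40% in library 1 (6.84 to 7.997) and 5.09% in library 2 (4.60 to 5.62). The diets did not overlap and the mean was 2.57 percentage points higher on HFD (exact two-sided permutation test, p = 0.333, the smallest that 2 against 2 libraries can give). With shared barcodes counted once the shares were 4.33, 2.85, 2.89 and 5.11%. The diets then overlapped, CTRL 2 and HFD 1 being low and CTRL 1 and HFD 2 high, and the difference was 0.412 points (exact permutation p = 0.667). Among cells of at least 1000 genes, where HFD 1 kept 192 of its 593 gonadotropes, the shares were 4.36, 2.80, 3.18 and 5.06%, a difference of 0.543 points (exact permutation p = 0.667). Leaving out CTRL 2 turned this last difference to -0.239 points and leaving out HFD 2 to -0.398. Intervals cover counting error only.

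**Figure D2:**
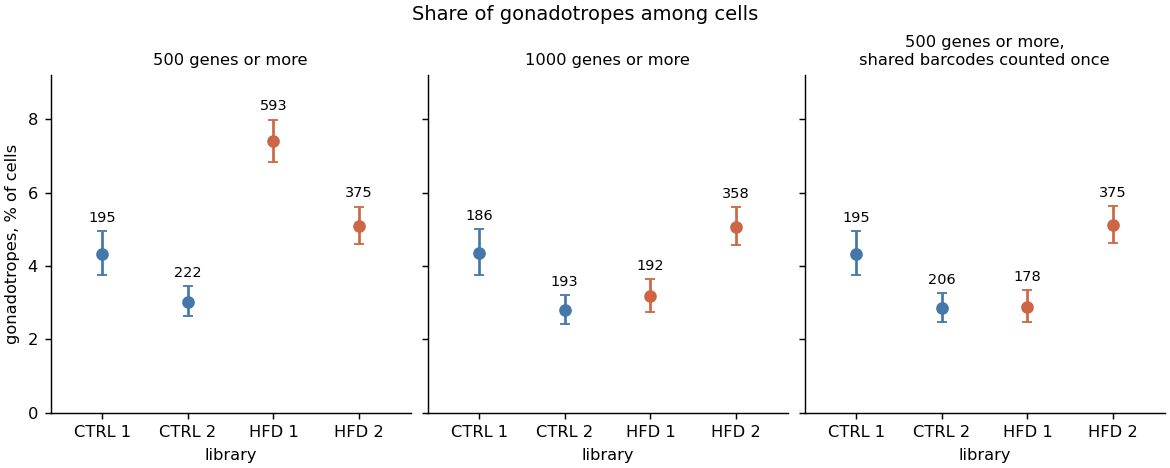
Gonadotropes as a percentage of cells in each library, with 95% exact binomial intervals and the number of gonadotropes above each point. The HFD 1 value falls from 7.40% (left) to 3.18% among cells of at least 1000 genes (middle) and 2.89% with shared barcodes counted once (right).

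Diet comparisons of genes used UMIs summed over the gonadotropes of each library and edgeR's quasi-likelihood test with Benjamini-Hochberg adjustment over all genes tested, and a gene passed at an adjusted p under 0.05. In all gonadotropes 392 of 12669 genes passed (3.09%), 212 higher on HFD (1.67%) and 180 lower (1.42%). Counted once, 271 of 12705 passed (2.13%), 150 higher (1.18%) and 121 lower (0.952%), and 270 of these were among the 392. In gonadotropes of at least 1000 genes, 263 of 12658 passed (2.08%), 144 higher (1.14%) and 119 lower (0.94%), 262 of them among the 392. The 392 include Fshb, Gnrhr and Pomc, 3 genes of the rule, for which nothing is read from this fit. At an unadjusted p under 0.05 there were 2992 genes, and CPM did not overlap between the diets for 7213 of the 12669 (56.9%). Leaving out CTRL 2 reduced the 392 to 109, and leaving out CTRL 1 raised it to 649.

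Scaling mattered for direction. Cga, the most abundant gonadotrope transcript, took up a larger part of all UMIs on HFD, and the fits scale libraries by edgeR's trimmed mean of M-values (TMM), which put the median log2 difference of all tested genes at 0.00. With library totals alone that median was -0.15, and 102 genes were higher and 1149 lower on HFD. CPM values are on library totals and log2 differences on TMM scaling, so a small difference can carry opposite signs on the 2 scales.

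Of the 3 subunit genes, Cga and Fshb rose on HFD and Lhb did not pass. Where 2 values are given for a diet, they are library 1 and then library 2. Cga (chr4:34893779-34907370, plus strand, mm10), the alpha subunit, stood at 137448 and 153201 CPM on CTRL and 190065 and 183142 on HFD. Both HFD libraries were above both CTRL libraries, and Cga rose by 0.51 on the log2 scale (SE 0.05, adjusted p = 0.0043; counted once adjusted p = 0.0069). A separate test of the difference between cell classes found the rise larger than that of thyrotropes, which make the same subunit for thyrotropin, by 0.32 (adjusted p = 0.0137; counted once 0.0188).

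For the 4 genes that define a gonadotrope here, tests are read only from cells chosen by the other 3. Fshb (chr2:107056140-107059656, minus strand) stood at 14647 and 11773 CPM on CTRL and 16329 and 15766 on HFD. The HFD libraries were again the higher ones, with CTRL 1 close to them, and Fshb rose by 0.44 on the log2 scale (SE 0.08, adjusted p = 0.0391, where 1.11% of genes passed as higher; counted once 0.45, adjusted p = 0.0440). The call was lost with library totals alone (0.28, adjusted p = 0.0745), without HFD 1 (0.40, adjusted p = 0.104) and without HFD 2 (0.48, adjusted p = 0.0836).

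Lhb (chr7:45420820-45421897, plus strand) ran from 2035 CPM in CTRL 1 and 946 in CTRL 2 to 237 in HFD 1 and 800 in HFD 2, or 1491 ± 770 on CTRL against 518 ± 398 on HFD (SD, n = 2 libraries each). The diets did not overlap, but libraries of the same diet differed by more than CTRL 2 and HFD 2 did from each other. The log2 difference was -1.36 (SE 0.45) and did not pass (adjusted p = 0.113, where 1.16% of genes passed as lower; counted once -1.37, adjusted p = 0.131). It passed without HFD 1 (-0.75, adjusted p = 0.0331), without HFD 2 (-2.49) and without CTRL 2 (-1.81).

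The last bases of Lhb overlap Ruvbl2, a helicase gene on the other strand (chr7:45421760-45421897 in GENCODE vM21). Whether counting used the strand is not given in the sources used here, which leaves the assignment of reads there uncertain. Ruvbl2, named here only for that overlap, stood at 24.2, 18.0, 19.7 and 20.5 CPM (adjusted p = 0.805).

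Gnrhr (chr5:86180754-86197901, minus strand), the GnRH receptor, stood at 1087 and 1413 CPM on CTRL and 716 and 779 on HFD. Both HFD libraries were below both CTRL libraries, and Gnrhr fell by 0.59 on the log2 scale (SE 0.11, adjusted p = 0.0317, where 1.27% of genes passed as lower; counted once -0.60, adjusted p = 0.0377). DESeq2 gave an adjusted p of 0.0686 and the fit without CTRL 2 gave -0.37 (adjusted p = 0.0654).

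Tgfbr3l (chr8:4248214-4251423, plus strand), the inhibin B coreceptor, stood at 3038, 2845, 2795 and 2996 CPM in the same order of libraries. The diets overlapped, and the difference of 0.13 (SE 0.06) did not pass (adjusted p = 0.204, where 1.46% of genes passed as higher; counted once 0.13, adjusted p = 0.232) and was -0.024 with library totals alone. Nr5a1 (chr2:38692656-38714542, minus strand) stood at 80.9, 93.2, 77.0 and 77.3 CPM, with a log2 difference of -0.02 (SE 0.10, adjusted p = 0.931; counted once adjusted p = 0.980).

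**Figure D3:**
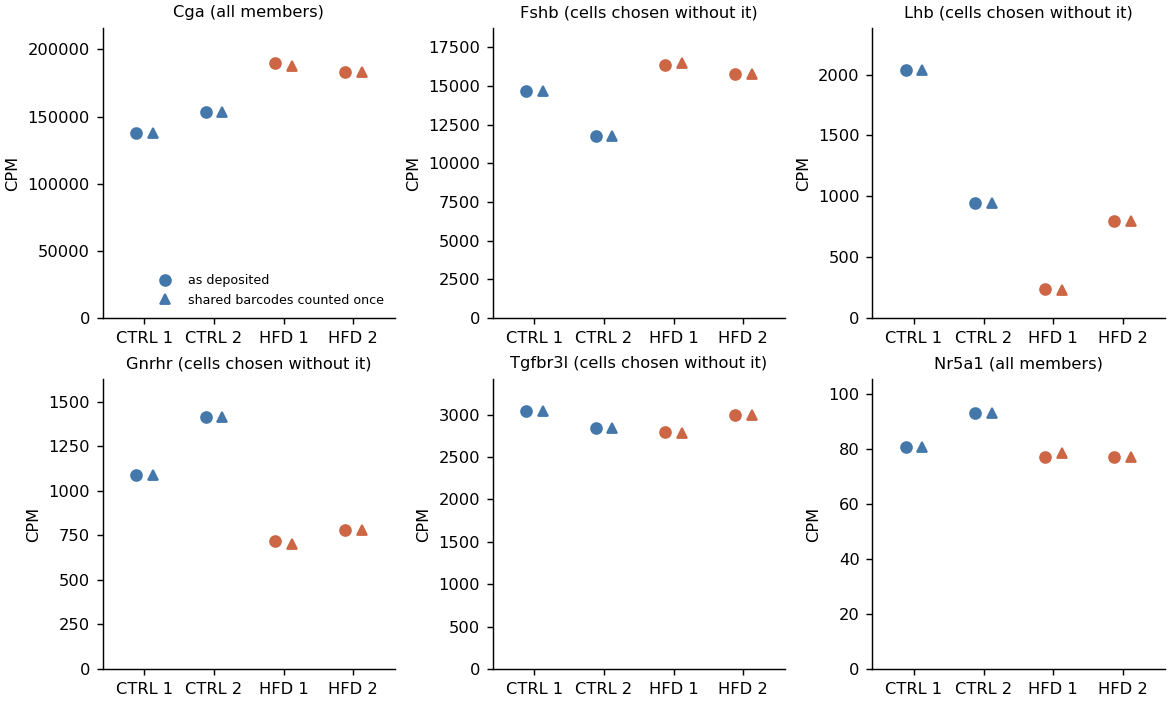
CPM of 6 gonadotrope markers in each library, as deposited (circles) and with shared barcodes counted once (triangles); the 4 genes of the rule are shown in cells chosen without the gene plotted. Cga and Fshb are highest in the HFD libraries, Gnrhr and Lhb lowest, and Lhb also differs between libraries of 1 diet, from 237 to 800 CPM on HFD.

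For barcodes present in 2 libraries, the 2 copies were compared, and whether the copies come from the same cell was not tested. For 326 barcodes that were gonadotropes in both HFD libraries, 583 genes had at least 200 CPM in the HFD 2 copies, and the HFD 1 copies differed from them by a median log2 of -0.07 (5th to 95th percentile -0.29 to 0.15). Lhb was the lowest of the 583, at 288 CPM in the HFD 1 copies (150 UMIs) and 798 CPM in the HFD 2 copies (7188 UMIs), a ratio of 0.361 (95% interval 0.305 to 0.424, counting error only). The ratio was 0.986 for Fshb, 0.961 for Gnrhr, 1.02 for Tgfbr3l and 1.16 for Cga. For 85 barcodes that were gonadotropes in HFD 1 and CTRL 2, Lhb had 28 UMIs in the HFD 1 copies and 2944 in the CTRL 2 copies, a ratio of 0.316 (0.210 to 0.458) that was the second lowest of 628 genes. In these copies the ratio was 0.965 for Fshb, 0.949 for Gnrhr, 0.790 for Tgfbr3l (0.676 to 0.919) and 1.14 for Cga. Lhb was thus lower in the HFD 1 copies than in the larger copies of both libraries, and the cause was not tested.

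**Figure D4:**
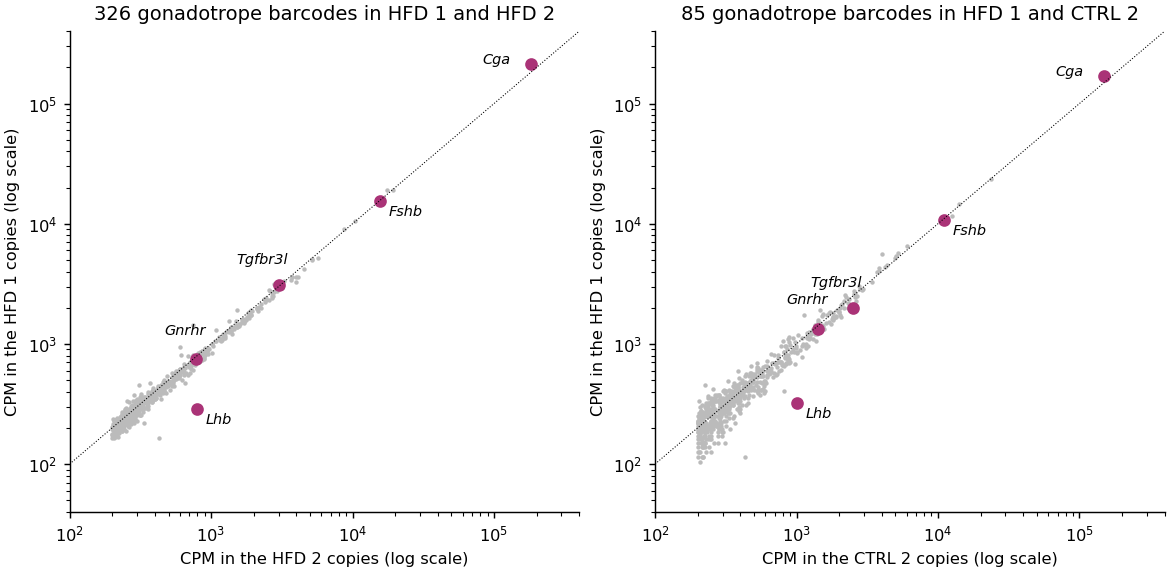
CPM of genes in the smaller HFD 1 copies (vertical axis) against the larger copies of the same gonadotrope barcodes in HFD 2 (left) or CTRL 2 (right), on log scales, with the dotted line at equal CPM. Lhb lies below the line in both panels, at ratios of 0.361 and 0.316, while Fshb lies close to it.

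Detection per cell is given as a description, since the members were chosen with these genes. With each gonadotrope thinned to 1000 UMIs (2, 15, 66 and 0 shallower cells left out), Lhb was detected in 78.2 and 58.9% of CTRL gonadotropes (libraries 1 and 2), and in 22.6 and 54.4% of HFD gonadotropes. Counted once the HFD 1 value was 19.4%, and without thinning the 4 values were 99.0, 93.2, 51.3 and 98.9%. In somatotropes, which should lack Lhb, the thinned share was at most 0.341% in any library. Fshb was detected in 99.0 to 100% of thinned gonadotropes of every library, so cells with Fshb and no Lhb UMI made up 21.2 and 40.6% on CTRL and 77.4 and 45.3% on HFD. Thinned detection of Gnrhr was 58.0 and 66.2% on CTRL and 52.0 and 50.4% on HFD, and that of Tgfbr3l lay between 90.1 and 92.0%.

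Of 13 listed gonadotrope transcription factors 11 were tested, and 1 passed, beside 3.09% of all genes tested. This was Pitx1, a homeodomain factor of the pituitary lineages. It stood at 448 and 367 CPM on CTRL and 455 and 568 on HFD. The HFD values were higher, HFD 1 only just, and Pitx1 rose by 0.48 (adjusted p = 0.0478), a call lost when barcodes were counted once (adjusted p = 0.0658). The list's median log2 difference was -0.01, beside 0.00 over all genes tested. Foxl2 and Gata2, a zinc-finger factor of gonadotropes and thyrotropes, both given after their values were seen, had differences of -0.17 (adjusted p = 0.305) and 0.47 (adjusted p = 0.0895).

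Of the 28 genes of GnRH receptor signalling tested beside Gnrhr, 0 passed with edgeR or DESeq2, and the median was -0.08. An unadjusted edgeR p under 0.05 was found for 5, beside 2992 of all 12669 genes tested. Prkcb, a protein kinase C isoform given as context after its value was seen, differed by 0.12 (adjusted p = 0.508). Of 22 genes of activin, inhibin and BMP signalling 19 were tested beside Tgfbr3l, with 1 higher and 1 lower (1.67 and 1.42% over all genes tested). Bambi, a decoy receptor of this family, rose from 16.3 and 12.7 CPM to 24.5 and 22.5, a log2 difference of 0.84 (SE 0.17, adjusted p = 0.0340; counted once 0.0422). Tgfbr3, which encodes the inhibin coreceptor betaglycan, fell from 104 and 120 CPM to 71.4 and 75.5, a difference of -0.45 (adjusted p = 0.0472; counted once 0.0562).

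Immediate-early genes, which cells switch on within minutes of a stimulus, were the list with the most calls. Of 33 tested, 19 were lower on HFD and 0 higher (15 in gonadotropes of at least 1000 genes, 16 counted once), with a median log2 difference of -0.89. Over all genes tested, 1.42% were lower and 1.67% higher. Summed over the list, CPM was 6058 and 6033 on CTRL and 3628 and 3699 on HFD, so the libraries of each diet lay close together. CPM did not overlap between the diets for 29 of the 33, beside 56.9% of all genes. With every cell thinned to 1000 UMIs 3 genes passed as lower, and with DESeq2 12 did. Ier3, Maff and Nr4a2 were the 3 of the 19 that did not pass counted once (adjusted p = 0.0547, 0.0505 and 0.0588).

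Fos, which pairs with Jun in the AP-1 factor, stood at 1082 and 931 CPM on CTRL and 575 and 646 on HFD. It fell by 0.57 on the log2 scale (SE 0.08, adjusted p = 0.0147), and its partner Jun fell by 0.72 (adjusted p = 0.0126). Fosb, a relative of Fos, went from 116 and 121 CPM to 52.5 and 36.8, a difference of -1.28 (adjusted p = 0.0055). Junb, another AP-1 subunit named after its value was seen, did not pass at -0.11 (adjusted p = 0.302).

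Egr1, the zinc-finger factor through which GnRH acts on Lhb, stood at 721 and 921 CPM on CTRL and 411 and 464 on HFD. It fell by 0.75 (SE 0.11, adjusted p = 0.0186), and Egr2, its relative, fell by 1.90 from 18.0 and 30.5 CPM. The orphan nuclear receptor Nr4a1 fell by 0.77, from 61.4 and 61.0 CPM to 29.5 and 34.5. Zfp36, which destabilises short-lived mRNAs, fell by 1.17 (adjusted p = 0.0043), Gadd45b, a stress-response gene, by 1.07 (adjusted p = 0.0043) and Btg2, an antiproliferative gene, by 0.59 (adjusted p = 0.0196). In the barcodes shared by the HFD libraries, Egr1 and Fos had ratios of 1.01 and 1.06 between the HFD 1 and HFD 2 copies. For the 85 gonadotrope barcodes shared with CTRL 2, the HFD 1 copies stood at 952 CPM for Egr1 and 860 for Fos. Their ratios to the CTRL 2 copies were 0.959 and 0.896.

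In somatotropes the median of the immediate-early list was -1.16, with 1 of 33 genes passing (0.00665% of all genes tested there). In thyrotropes that median was -0.63, with 4 of 28 passing as lower (0.223% of all genes tested there). Tests of the difference in diet effect passed for 3 of 33 genes against thyrotropes (0.637% of all genes tested). The effect in gonadotropes minus that in thyrotropes was -1.79 for Atf3, -1.97 for Nr4a3 and -1.14 for Klf6. Counted once, Klf6 passed (adjusted p = 0.0039) and Atf3 and Nr4a3 did not (0.108 and 0.0619). These tests also passed for 3 of 33 genes against somatotropes (0.328% of all genes tested). There the difference was smaller in gonadotropes for Btg2, Nr4a1 and Dusp1, by 0.84, 1.77 and 1.53. Dusp1, a MAP kinase phosphatase named after its value was seen, did not pass within gonadotropes (-0.32, adjusted p = 0.181). For 14 of the 33 genes, gonadotropes held under 10% of the CPM of the richest other cell class, so free RNA from those cells could supply the counts, and 7 of the 19 calls were among these; its part in the result was not tested.

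Of 12 heat shock genes, 4 were lower and 0 higher on HFD (1.42 and 1.67% over all genes tested), with a median of -0.38. The count was also 4 with barcodes counted once and in gonadotropes of at least 1000 genes. Dnajb1, a cochaperone induced by misfolded proteins, went from 321 and 231 CPM to 140 and 116, a difference of -0.96 (SE 0.14, adjusted p = 0.0161). Dnaja1, another cochaperone, fell by 0.58, Hsph1, a nucleotide exchange factor, by 0.69 and Hsp90aa1, the inducible form of HSP90, by 0.47. In somatotropes the median of this list was -0.51, with 0 of 12 genes passing. In thyrotropes it was -0.04, with 2 of 12 passing as lower (0.223% of all genes tested there). Tests of the difference in diet effect passed for 0 of 12 genes against somatotropes and 2 of 12 against thyrotropes (0.328 and 0.637% of all genes tested). For these 2, Dnaja1 and Hsp90aa1, the diet effect in gonadotropes minus that in thyrotropes was -0.62 (adjusted p = 0.0194) and -0.49 (adjusted p = 0.0452). Both differences were slightly larger than the falls within gonadotropes, and neither passed counted once (adjusted p = 0.0759 and 0.108). Hspa1a, the inducible HSP70, was named after its value was seen: CTRL 1 stood apart at 601 CPM against 295 to 334 in the other 3 libraries, and it did not pass (adjusted p = 0.481).

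**Figure D5:**
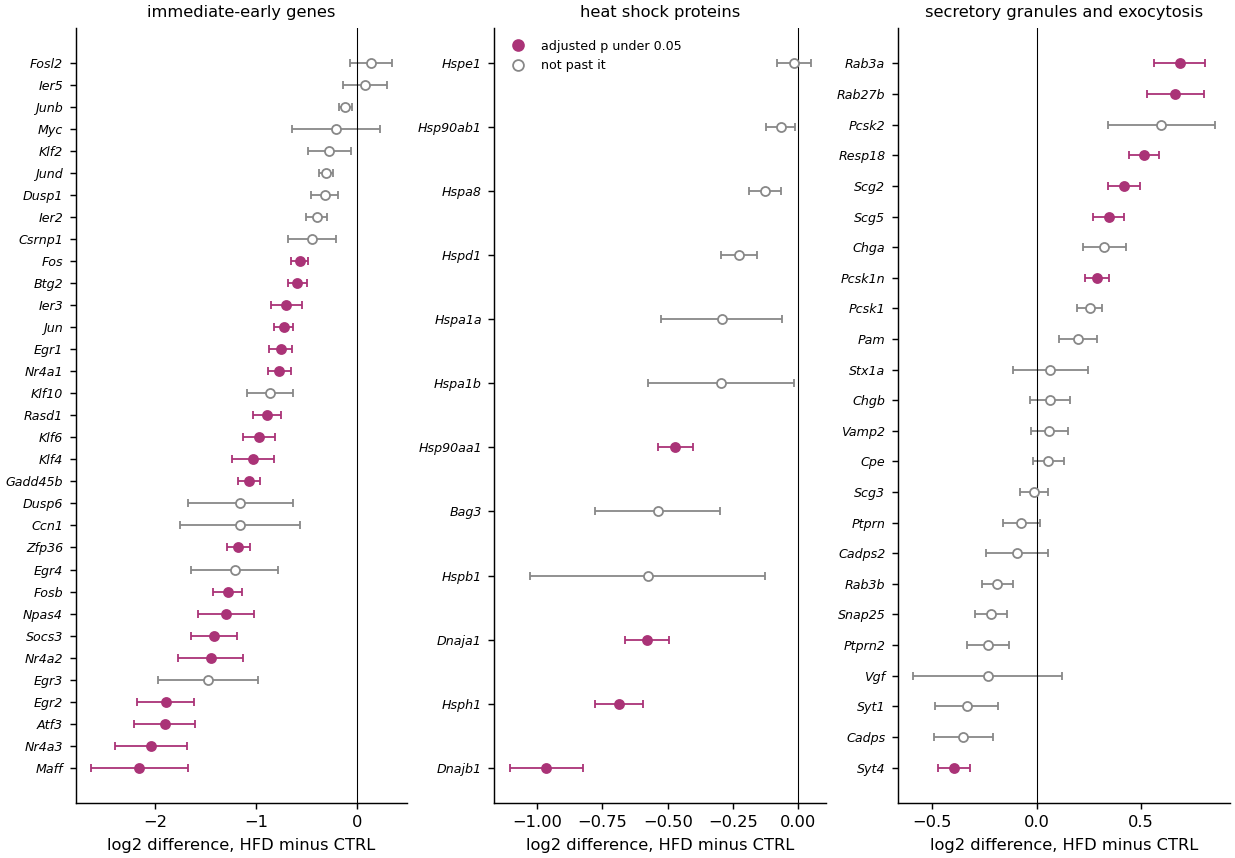
Log2 differences, HFD minus CTRL, with standard errors, for every tested gene of 3 lists in gonadotropes; filled points passed at an adjusted p under 0.05. In the immediate-early list 19 of 33 genes are filled and all of these lie below 0, in the heat shock list 4 of 12, and in the secretory granule list 6 filled points lie above 0 and 1 below.

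Among 24 genes of secretory granules and exocytosis, 6 were higher and 1 lower on HFD (1.67 and 1.42% over all genes tested), with a list median of 0.06. Counted once, 5 were higher and 1 lower. Scg2, the secretogranin II of gonadotrope granules, stood at 17261 and 13762 CPM on CTRL and 18003 and 19191 on HFD. CTRL 1 was near the HFD libraries, and Scg2 rose by 0.42 (SE 0.08, adjusted p = 0.0275; counted once 0.0383). Its diet effect exceeded that in thyrotropes by 0.55 (adjusted p = 0.0051) and that in somatotropes by 0.82 (adjusted p = 0.0085), both more than the rise itself.

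Resp18, a granule protein of endocrine cells, rose by 0.51 from 1945 and 1672 CPM to 2240.5 and 2400.2 (adjusted p = 0.0147). The granule GTPases Rab3a and Rab27b rose by 0.69 (adjusted p = 0.0232) and 0.66 (adjusted p = 0.0356). Scg5, the chaperone of prohormone convertase 2, rose by 0.34 (adjusted p = 0.0437, counted once 0.0562), its CTRL 1 value of 2640 CPM lying above the 2632 of HFD 1. Pcsk1n, an inhibitor of prohormone convertase 1, rose by 0.29 (adjusted p = 0.0328). Syt4, a synaptotagmin that restrains vesicle fusion, fell from 371 and 407 CPM to 265 and 267 (-0.40, adjusted p = 0.0315). With library totals alone 3 of the 6 rises passed, and Scg2, Scg5 and Pcsk1n did not (adjusted p = 0.0838, 0.174 and 0.191). Chga, chromogranin A, named after its value was seen, did not pass (0.32, adjusted p = 0.103).

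No receptor of the steroid hormone receptor list passed. Of 8 tested genes of that list 1 was lower (1.42% over all genes tested), and 0 passed with DESeq2. The lower gene was Greb1, a gene induced by estrogen rather than a receptor. Greb1 went from 23.0 and 44.5 CPM to 7.84 and 9.93, a difference of -1.73 (SE 0.30, adjusted p = 0.0216). The fall exceeded that in somatotropes by -1.50 (adjusted p = 0.0212). Esr1, an estrogen receptor named after its value was seen, did not pass (-0.33, adjusted p = 0.113).

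Of 13 tested genes of metabolic hormone receptors and signals, 1 was higher and 1 lower (1.67 and 1.42% over all genes tested), with a median of -0.22. Txnip, a thioredoxin inhibitor induced by glucose, stood at 68.4 and 64.3 CPM on CTRL and 103 and 117 on HFD. It rose by 0.89 (SE 0.09, adjusted p = 0.0050, counted once 0.0069). Its diet effect exceeded that in somatotropes by 1.10 (adjusted p = 0.0302), which is more than the rise itself. Irs2, an adaptor of the insulin receptor, fell from 40.2 and 52.5 CPM to 22.5 and 25.6 (-0.77, adjusted p = 0.0339). The insulin receptor Insr, named after its value was seen, differed by 0.03 (adjusted p = 0.938), and the leptin receptor Lepr stayed under 1 CPM in every library and was not tested.

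In the unfolded protein response 1 of 14 tested genes passed, beside 3.09% of all genes tested. It was Herpud1, a component of endoplasmic reticulum degradation, which rose by 0.55 (adjusted p = 0.0391, counted once 0.0663). The chaperone Hspa5 of the same list, named after its value was seen, differed by -0.01 (adjusted p = 0.940). Of 15 tested genes of lipid and cholesterol metabolism 0 passed with edgeR or DESeq2. An unadjusted edgeR p under 0.05 was found for 6 of them, beside 2992 of all 12669 genes tested. Of 16 neuropeptide and dopamine receptors 6 were expressed enough to test, and 0 passed with either tool. There 2 had an unadjusted p under 0.05, to be read beside the same 2992 of 12669. The smallest p-values of these lists were those of Hmgcs1, an enzyme of cholesterol synthesis (-0.45, adjusted p = 0.0535), and Adcyap1r1, the receptor of the peptide PACAP (0.42, adjusted p = 0.0886), both named after their values were seen.

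Grem1, Spp1 and Speer4e, leading genes of the gonadotropes outside the rule, rose on HFD. Grem1 stood at 179 and 159 CPM on CTRL and 245 and 227 on HFD and rose by 0.63 (SE 0.08, adjusted p = 0.0126). Spp1 rose by 0.39 from 2391 and 2294 CPM to 2856 and 2664 (adjusted p = 0.0186), and Speer4e rose by 0.93 (adjusted p = 0.0043), with the copy uncertainty given above. Nr0b1 (-0.27), Serpinb1a (0.20) and Nefl (-0.56) did not pass (adjusted p = 0.290, 0.324 and 0.0601).

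Among all genes, with those that other cells could supply left out, the highest differences included a group of weakly expressed genes. Nrp2, a coreceptor for semaphorins and vascular growth factors, stood at 60.4 and 43.2 CPM on CTRL and 105 and 111 on HFD. Both HFD values were above both CTRL values, and Nrp2 rose by 1.21 (SE 0.13, adjusted p = 0.0050; counted once 0.0079). Its diet effect exceeded that in thyrotropes by 1.46 (adjusted p = 0.0031) and that in somatotropes by 1.30 (adjusted p = 0.0223), both more than the rise itself. In the barcodes shared by the HFD libraries its HFD 1 copies had a ratio of 0.677 to the HFD 2 copies (39 against 996 UMIs).

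Serpina3c, a serine protease inhibitor, rose by 1.82 (SE 0.21, adjusted p = 0.0055) from 9.01 and 6.93 CPM to 21.3 and 28.8. Chst2, a sulfotransferase, rose by 1.31 (adjusted p = 0.0192) and Ube2u, a ubiquitin-conjugating enzyme, by 1.58 (adjusted p = 0.0398). Apof, an apolipoprotein, and Cd27, a receptor of the tumor necrosis factor family, stayed at or under 6.03 CPM. Their calls (adjusted p = 0.0458 and 0.0478) were lost counted once (0.0665 and 0.0663).

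The 4 highest differences belonged to hemoglobin genes. Hbb-bs stood at 25.9 and 15.2 CPM on CTRL and 118 and 907 on HFD, a log2 difference of 4.79 (adjusted p = 0.02005). Hbb-bt, Hba-a1 and Hba-a2 followed the same order, with HFD 2 far above the other 3 libraries. Summed over these 4 red cell genes, the levels were 37.0, 24.4, 182 and 1400 CPM, and 37.0, 24.2, 41.7 and 1400 counted once. Counted once none of the 4 passed (adjusted p between 0.0619 and 0.0718), and of the 586 UMIs of Hbb-bs in HFD 1 gonadotropes, 471 lay in smaller copies of HFD 2 gonadotrope barcodes. Hemoglobin RNA is a product of red cells, and its part in other results was not tested.

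The lowest differences were led by Dusp5, a phosphatase of ERK that ERK signalling induces, at 22.9 and 27.9 CPM on CTRL and 4.42 and 3.10 on HFD. It fell by 2.65 (SE 0.24, adjusted p = 0.0037; counted once 0.0069). Zfp507, a zinc-finger gene, fell by 1.35 from 40.7 and 52.5 CPM to 14.3 and 17.8 (adjusted p = 0.0090). Gstm1, a glutathione transferase, fell by 1.27, Cryab, a small heat shock protein, by 1.47, and Ptp4a1, a phosphatase whose symbol is shared by 2 genes of the annotation, by 1.45 (adjusted p = 0.0398). With membership at 1% Cryab differed by only -0.16 (edgeR adjusted p = 0.871) and Gstm1 by -0.80 (adjusted p = 0.0618). Without the members of highest UMI totals they differed by -1.53 (adjusted p = 0.157) and -0.77 (adjusted p = 0.152), so both calls were lost in both settings. Npas4, an activity-induced factor, fell by 1.29, and Klhl41, at or under 5.54 CPM, fell by 1.87 (adjusted p = 0.0450, counted once 0.0555).

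Markers of other cell types were low in gonadotropes and differed by library. Summed stem cell markers stood at 352, 243, 179 and 50.6 CPM in CTRL 1, CTRL 2, HFD 1 and HFD 2. Of 7 tested, 3 (Lcn2, Rbpms and Sox9) were lower on HFD, beside 1.42% of all genes tested, and 0 passed with DESeq2. All 3 were at levels that free RNA could supply. Counted once, Rbpms did not pass (adjusted p = 0.0731). Macrophage markers stood at 24.7, 48.1, 20.5 and 2.88 CPM, with 0 of 5 passing by edgeR or DESeq2. An unadjusted edgeR p under 0.05 was found for 3 of the 5, beside 2992 of all 12669 genes tested. Lactotrope markers stood at 2180, 1165, 1086 and 263 CPM and somatotrope markers at 6644, 2833, 4441 and 8831, both bounded by the rule. Endothelial markers stood at 57.5, 21.8, 90.5 and 22.4 CPM, mesenchymal and pericyte markers at 23.9, 13.7, 9.65 and 35.1, and thyrotrope markers at 39.0, 24.4, 25.3 and 62.9. Corticotrope and melanotrope markers, nearly all Pomc, which the rule bounds and which is not tested here, stood at 548, 448, 270 and 344 CPM. The lymphocyte markers Cd3e, Cd3d, Ms4a1 and Nkg7 were at 0 in every library. Of the 392 genes that passed, 34 were under 10% of the CPM of the richest other cell class, so free RNA could supply their counts. All 34 were lower on HFD, and their part in the results was not tested. The 4 hemoglobin genes, higher on HFD, were above that limit and are not among the 34. That limit compares only classes of cells with at least 500 genes, so red cell barcodes with fewer genes are not in it. The median log2 difference of these 4 genes was 6.95 in thyrotropes and 1.80 in somatotropes, and supply of hemoglobin RNA from outside the cells was not tested.

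Diet effects were compared directly between gonadotropes and 2 other hormone cell classes, with the library as a block. Against 404 thyrotropes, 81 of 12718 genes passed (0.637%), 23 with a higher (0.181%) and 58 with a lower difference (0.456%) in gonadotropes, and 41 passed counted once. Against 8486 somatotropes, 51 of 15563 passed (0.328%), 31 higher (0.199%) and 20 lower (0.129%), and 47 counted once. Fitted alone with the same test, 61 of 9865 genes passed in thyrotropes (0.618%) and 1 of 15041 in somatotropes (0.00665%), where 2734 had an unadjusted p under 0.05. Igfbp5, a binding protein of insulin-like growth factors named after its value was seen, differed from its diet effect in thyrotropes by -1.10 (adjusted p = 0.0016). The diet effect in gonadotropes minus that in somatotropes was -0.89 for Enah, an actin regulator, and 1.09 for Copz2, a coatomer subunit (adjusted p = 0.0197 for both).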

How the data were processed

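Whole pituitary suspensions of 2 CTRL and 2 HFD libraries were measured with 10x Genomics 3' v3.1 chemistry. The authors deposited, for each library, a matrix of UMI counts (whole numbers, by gene and by barcode); Cell Ranger 6.1.2, Seurat 4.3 and the mm10 build are named in the submitters' processing notes, with no role given, and strand use is not given in them. The deposited counts held 34737 barcodes, each with at least 500 UMIs, and 32285 genes; coordinates are from GENCODE vM21 and promoters from RefSeq.

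Cells and gonadotropes were chosen by the thresholds stated with the results. No doublet caller was run: the limits on other hormones stand in for one, and members with more than 2 times the median UMIs of members of at least 1000 genes in their library were left out in an alternative. The members and lists were chosen with earlier results of these data known. Counts were summed per library over gonadotropes (CPM: per 1000000 summed UMIs) and fitted with edgeR 4.0.16 (quasi-likelihood F-test, TMM, filterByExpr, Benjamini-Hochberg over all genes tested) in R 4.3.3; standard errors are the log2 difference divided by the root of F. Differences between cell classes were tested as a class by diet interaction with the library as a block; thyrotropes and somatotropes were chosen by their own hormone genes. Shares were compared by exact permutation over libraries. The fit recovered 80% of simulated log2 changes of 1 and 100% of changes of 2 at a dispersion of 0.02 over 12669 genes, when tested on simulated data. At a dispersion of 0.05 it recovered 28 and 97%, and at 0.005 it recovered 98 and 100%. The dispersion of the real data is not given here. Python 3.11.15, numpy 2.4.6, scipy 1.17.1 and pandas 2.3.3 were used.

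Named genes were the 6 gonadotrope markers and list genes that passed; the 10 highest and 10 lowest differences that passed without overlap between the diets, leaving out the 8 genes of the rule, mitochondrial and unnamed genes, and genes under 10% of the CPM of the richest other class; the 10 genes with the largest ratio to other cells among those of at least 50 CPM; the most abundant marker of each other cell type; and the 5 smallest p-values of each interaction. Alternatives were DESeq2 1.42.0, RLE factors, no filter, the replicate block, other membership thresholds and leaving out each library; counting shared barcodes once and scaling by library totals alone were chosen after seeing the data. Leaving shared barcodes out of every library was not used, as 341 of 375 HFD 2 gonadotropes would be lost.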

Additional observations from a re-analysis of the deposited data

Results flagged for a closer look

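Genes whose diet effect differed between gonadotropes and another hormone cell class by a direct test are given here. Against thyrotropes there were 81. The 5 with the smallest p were C1qa, a complement gene of macrophages (-7.28, adjusted p = 3.94e-07), Ccl4, a chemokine (-9.88, adjusted p = 1.08e-06), Cryab, a small heat shock protein (-4.07, adjusted p = 3.23e-06), Gadd45g, a stress-response gene (-1.76, adjusted p = 6.06e-06), and Ctss, a cathepsin of macrophages (-5.58, adjusted p = 7.72e-06). Values are log2 diet effects in gonadotropes minus those in thyrotropes. C1qa stood at 0.963, 1.37, 71.8 and 16.7 CPM in the thyrotropes of CTRL 1, CTRL 2, HFD 1 and HFD 2 and at 4.67, 12.7, 3.02 and 0.641 CPM in the gonadotropes, so the largest levels lay in HFD thyrotropes.

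Against somatotropes there were 51. The 5 with the smallest p were Scg2, a secretogranin (0.82, adjusted p = 0.0085), Rplp0, a ribosomal protein gene (0.66), Enah, an actin regulator (-0.89), Copz2, a coatomer subunit (1.09), and Lpl, lipoprotein lipase (1.16), the last 4 with an adjusted p of 0.0197. Rplp0 rose within gonadotropes by less than its difference from somatotropes (0.33, adjusted p = 0.0227). Lpl did not pass within gonadotropes (0.15, adjusted p = 0.465) and stood at 46.4, 42.0, 45.8 and 42.5 CPM.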

How the results depend on the processing

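With 2 libraries per diet, each summed value rests on few cells or on 1 library, and no result was free of that limit. The difference in share (2.57 points) moved to 0.412 counted once and ranged from 1.42 to 3.73 when each library was left out in turn. Among cells of at least 1000 genes (0.543) it ranged from -0.398 to 1.49, turning to -0.239 without CTRL 2 and -0.398 without HFD 2.

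The 392 genes became 1593 with no filter, 1251 with library totals alone (102 higher), 159 with membership at 1%, 250 with stricter limits on other hormones, 14 with members thinned to 1000 UMIs, 261 counted once at 1000 genes, and 109 to 649 when each library was left out in turn. The 263 genes at 1000 genes became 1346, 1059 (library totals alone) and 132 to 772 without a library. The 19 immediate-early calls became 12 with DESeq2, 3 thinned and 13 to 20 without a library; the 4 heat shock calls became 7 with no filter or with library totals alone, 1 thinned and 4 to 6 without a library; the 6 granule calls became 3 at 1% membership, 3 with library totals alone, 0 thinned and 2 to 7 without a library. The 81 interaction genes became 213 with no filter, 37 at 1000 genes, 41 counted once and 8 to 192 without a library; the 51 became 1030 with no filter and 100 to 173 without a library.

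Fshb (0.44) became 0.28 with library totals alone and ranged from 0.30 to 0.60 without a library. Lhb passed at -1.34 with no filter and ranged from -2.49 to -0.72. Gnrhr did not pass at -0.59 with DESeq2 and ranged from -0.78 to -0.37 without a library. Tgfbr3l turned to -0.024 with library totals alone. Of 65 named genes that passed, 15 lost the call counted once, 17 at 1000 genes, and, on leaving out a library, 9 (CTRL 1), 31 (CTRL 2), 6 (HFD 1) and 10 (HFD 2). The count was 6 with library totals alone and 0 with RLE factors. With DESeq2 only 43 of the 65 were compared, of which 3 lost the call, and the rest cannot be taken as kept. By list, 12 immediate-early genes passed with DESeq2 against 19 with edgeR, and 0 stem cell markers against 3. In the other direction, 8 granule genes passed against 7. Among genes that had not passed, signs turned for Dcn (-1.85 to 0.87 on leaving out a library, negative without CTRL 2 and without HFD 2), Egfl7 (-0.68 to 0.75, negative without CTRL 2 and without HFD 1; -0.27 at 1% membership, -0.055 with library totals alone), Lpl (-0.0087 with library totals alone), Nr0b1 (0.33 thinned) and Nr5a1 (-0.14 to 0.11, positive without CTRL 2; 0.32 thinned). The causes were not tested.

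The labels do not say whether the replicate numbers pair the libraries. Deviations of same-numbered libraries correlated at -0.0087 over 12669 genes, which is 1 correlation from 4 libraries and cannot settle it. With the replicate block, 77 genes passed (36 higher, 41 lower), 70 at 1000 genes, 1 granule gene was higher, Gnrhr did not pass (-0.58) and 34 of the 65 named genes lost the call.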
